A study of Mus musculus with 16 samples.

Results

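Messenger RNA of 10 apolipoprotein genes was followed in mouse liver: Apoa1, Apoa2, Apoa4, Apoa5, Apob, Apoc1, Apoc3, Apoc4, Apoe and Apom. They were taken by name from the array annotation. The 10 genes had 16 probes among 41174 probes of the array, and made up 10 of the 16382 genes with a probe above background. All 16 probes were well above background in 24 of 24 channels and none was saturated, so every listed gene was measured.

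Apolipoproteins are the protein components of lipoproteins, the particles that carry cholesterol and triglyceride in blood, and the liver makes most of them. Apob is the structural protein of very low density lipoprotein and stays with the particle from assembly to uptake. Apoa1 and Apoa2 are the main proteins of high density lipoprotein (HDL), and Apom, which carries sphingosine-1-phosphate, travels on HDL too. The smaller exchangeable members move between particles: Apoc3 slows and Apoa5 speeds the clearance of triglyceride, Apoc1 restrains uptake of particles and modifies lipid-exchanging enzymes, Apoe is a ligand of the LDL receptor family, and Apoa4, known mainly from intestine, is also made by mouse liver.

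RNA came from livers of 4 genotypes hybridised in pairs to 2-colour Agilent arrays. Nrf2 KO mice were Nrf2-/- and lacked the transcription factor of the antioxidant response, encoded by Nfe2l2. Atg7 cKO mice were Atg7F/F:Mx1-Cre and lost Atg7, an enzyme needed to form autophagosomes, where pIpC had induced Cre. Double KO mice were Atg7F/F:Mx1-Cre:Nrf2-/-, and the partner on the arrays was a mouse labelled wild type. Mice were 8 weeks old when pIpC was given, the controls included per the series' design text, and livers were taken 4 weeks later. The Mx1 promoter is known to respond to interferon in blood-forming cells as well as in liver, so Cre activity is not particular to hepatocytes, and the labels do not say whether wild-type mice carried a floxed allele. Each of 8 experiments was a dye swap of 2 arrays: experiments 1 and 4 set Nrf2 KO, 2 and 5 set Atg7 cKO, and 3 and 6 set the double KO against wild type, while 7 and 8 set the double KO directly against Atg7 cKO. The labels do not say which mice entered which experiment, so the p-values measure the spread between experiments.

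Over the 12 arrays with scanner files the median spot signal was 41.8 to 55.6 per channel against a median background of 34.5 to 36.5, and 43.4% to 57.2% of spots were well above background. Nfe2l2, the gene of Nrf2, was lower in Nrf2 KO livers by a log2 ratio of -3.88 and in double KO livers by -3.71, and Atg7 was lower in Atg7 cKO livers by -0.81 and in double KO livers by -0.73. In Atg7 cKO livers Nfe2l2 was higher than in wild type, by 1.20 (limma adjusted p = 0.0069). Directly against Atg7 cKO, the double KO had a log2 ratio of -6.49 for Nfe2l2 and of 0.50 for Atg7 (limma adjusted p = 0.228). The Atg7 value came from -0.03 in experiment 7 and 1.03 in experiment 8. These direct values are from the deposited value table, which was processed otherwise than the ratios to wild type. Through wild type the values were -4.90 for Nfe2l2 and 0.07 for Atg7. Whether these probes lie in the deleted parts of the genes is not given in the sources used here. Experiments 4 to 6 differed from experiments 1 to 3 in transcripts tied to sex, which the labels do not give. The Xist signal was 1875 to 2591 in every channel of experiments 4 to 6, against 53.7 to 55.7 in experiments 1 to 3, and Eif2s3y of the Y chromosome was at 56.5 to 58.6 against 295.9 to 373.7. Each comparison held 1 experiment of each kind, so a difference between the sets and a difference between experiments cannot be told apart within a comparison. Of the genes that passed the test, 59% were higher in Atg7 cKO livers and 57.3% in double KO livers. With Agilent's own processed signals these shares were 48.8% and 46.7%, and with plain median centring in place of loess they were 90.8% and 85.7%.

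The probes of the members on which the results turn are given first, because each ratio reports what hybridised to 60 bases. Apoa2 and Apoc4, like Apoa1, Apoc1, Apoe and Apom, have a single probe, and Apob has 5. The Apoa2 probe lies on chromosome 1 at chr1:173155858-173155917 (plus strand), and that of Apoc4 on chromosome 7 at chr7:20263609-20263965 (minus strand), where a span longer than the probe means that it crosses an intron. The neighbouring Apob probes at chr12:8023134-8023193 and chr12:8023194-8023253 (plus strand) abut. All coordinates are those of the scanner files, on mm9, and the sequences are the array's own.
Apoa2 probe: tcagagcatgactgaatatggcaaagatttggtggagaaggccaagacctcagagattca
Apoc4 probe: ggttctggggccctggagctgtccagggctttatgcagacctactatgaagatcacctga
Apob probe 4: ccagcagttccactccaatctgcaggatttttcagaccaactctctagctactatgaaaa
Apob probe 5: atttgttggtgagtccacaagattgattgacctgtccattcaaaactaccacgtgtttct

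The Apoc3 probes, at chr9:46041363-46041422 and chr9:46041353-46041412 (minus strand), overlap, and capitals mark the 50 bases they share. They are shown because 2 probes that share most of their bases are close to a repeat measurement of one site and not independent support.
Apoc3 probe 1: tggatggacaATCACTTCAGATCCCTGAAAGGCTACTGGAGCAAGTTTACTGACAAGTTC
Apoc3 probe 2: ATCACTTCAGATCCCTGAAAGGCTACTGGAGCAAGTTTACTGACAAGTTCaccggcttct

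In RefSeq's gene order (GRCm38.p6), Apoa1, Apoc3, Apoa4 and Apoa5 follow each other on chromosome 9 with 0 genes between them, as do Apoc4, Apoc1 and Apoe on chromosome 7 behind Apoc2. Promoter windows from 250 bases before to 50 bases after an annotated start were given for 8 of the 10 genes, 12 windows in all. The windows of the gene with the largest ratios, Apoa2, and of Apob are printed from RefSeq (GRCm38.p6, plus strand), with the 50 bases after the start in capitals.
Apoa2, chr1:171221314-171221613: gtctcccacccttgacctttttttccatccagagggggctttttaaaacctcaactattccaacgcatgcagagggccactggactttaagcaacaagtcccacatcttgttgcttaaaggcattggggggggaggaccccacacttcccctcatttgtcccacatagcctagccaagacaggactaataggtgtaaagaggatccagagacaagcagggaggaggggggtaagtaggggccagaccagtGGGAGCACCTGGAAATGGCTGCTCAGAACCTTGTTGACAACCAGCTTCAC
Apoa2, chr1:171224804-171225103: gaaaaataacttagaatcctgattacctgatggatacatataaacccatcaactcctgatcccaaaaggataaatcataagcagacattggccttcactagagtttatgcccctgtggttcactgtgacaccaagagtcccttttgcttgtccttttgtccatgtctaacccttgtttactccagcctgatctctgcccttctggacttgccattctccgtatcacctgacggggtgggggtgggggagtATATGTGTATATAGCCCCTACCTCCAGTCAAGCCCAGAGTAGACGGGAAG
Apob, chr12:7977427-7977726: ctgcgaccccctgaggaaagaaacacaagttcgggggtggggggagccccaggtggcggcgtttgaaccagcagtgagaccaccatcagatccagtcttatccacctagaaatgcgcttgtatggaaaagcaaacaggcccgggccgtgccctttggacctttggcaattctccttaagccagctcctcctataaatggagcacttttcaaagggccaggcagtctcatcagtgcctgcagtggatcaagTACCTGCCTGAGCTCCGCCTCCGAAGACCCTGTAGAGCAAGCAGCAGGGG

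3 motifs were searched on both strands in the 12 windows. The core of the antioxidant response element, TGACNNNGC, which Nrf2 binds with a small Maf partner, occurred in 12.4% of all 32851 windows of this length and in 0 of the 12. The HNF4 direct repeat, a pair of half-sites with a base between, occurred in 0.381% of all windows and the HNF4 site CAAAGTCCA in 0.475%, and neither occurred in any of the 12. This says only that these letters are not in these windows.

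Loss of Nrf2 alone moved none of the 10 genes past the test. The median log2 ratio of Nrf2 KO over wild type was 0.00 over the members, against 0.00 over all genes. In a limma fit over all genes with Benjamini-Hochberg adjustment, 0 of 10 members had an adjusted p under 0.05, against 0.0122% of all 16380 genes tested, and 1 had an unadjusted p under 0.05. That one was Apoa4, the member with the dimmest probe, with a signal of 137 and 168.3 in Nrf2 KO livers against 178.4 and 245 in wild-type livers (log2 ratio -0.46 ± 0.17 SE, adjusted p = 0.9998). Apob had log2 ratios of 0.01 and 0.04 in experiments 1 and 4, and Apoa2 had 0.06 and 0.18. Apoc1 had 1 usable experiment here, because an array of experiment 4 carried an outlier flag at its spot, with a log2 ratio of 0.38. The 95% interval of the Apoa1 log2 ratio, the member with the largest SE here, ran from -0.90 to 1.32. Under median centring in place of loess the ratios of Apoa5, Apoc3, Apoe and Apom, all near 0, changed sign.

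In Atg7 cKO livers 5 of the 10 apolipoproteins were lower and none was higher, against 16.3% of all genes called lower and 23.4% called higher. Apoa2 fell furthest, to 28.7% of its wild-type signal. Apob fell to 47.5%, Apoc4 to 49.8%, Apoc1 to 55.7% and Apom to 62.3%. The median log2 ratio of the 10 genes was -0.61, against 0.00 for all genes. With median centring in place of loess the medians were -0.22 for the 10 and 0.21 for all genes, and Apoa2 and Apob alone were called lower, with Apoa4 higher. With slide as a block 8 members were called, all lower, and with single arrays and a dye effect 7 were lower and 1, Apoa4, higher.

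Apoa2 had a signal of 6605 and 6663 in the Atg7 cKO livers of experiments 2 and 5, against 20770 and 25790 in the wild-type livers they were paired with. The groups were far apart in both experiments, with log2 ratios of -1.65 and -1.95 (mean -1.80 ± 0.18 SE, n = 2, adjusted p = 0.00197 in limma). In the double KO the Apoa2 signal was 4405 and 8699, against 17590 and 21180 in wild type. The log2 ratios were -2.00 and -1.28 (mean -1.64 ± 0.18 SE, n = 2, limma adjusted p = 0.00254). Wild-type signals varied with the partner on the array: beside Nrf2 KO, wild-type Apoa2 was at 11850 and 13860. Apoa2 kept an adjusted p under 0.05 in both comparisons under each of the 16 other settings run, with log2 ratios of -1.95 to -1.43 in Atg7 cKO and -2.00 to -1.28 in the double KO.

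Apob had a signal of 3277 and 4478 in Atg7 cKO livers, against 8157 and 7961 in the wild-type livers they were paired with. Its log2 ratio was -1.07 ± 0.11 SE (limma adjusted p = 0.00248), and it passed under all 16 other settings. Apob in double KO livers was at 5493 and 5210, against 7756 and 7358 in the paired wild type. The log2 ratio there was -0.50 in both experiments (limma adjusted p = 0.0237), and without experiment 1, 3, 4 or 6 the adjusted p was 0.0560, 0.137, 0.0560 and 0.134. The direct comparison of double KO with Atg7 cKO gave Apob log2 ratios of 0.83 and 0.28 (mean 0.55 ± 0.17 SE), higher in the double KO in both experiments, with a limma adjusted p of 0.0798 that misses the threshold. With single arrays, a dye effect and experiment as a random block, that limma adjusted p was 0.00691. That fit takes the arrays of a dye swap as separate rows.

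The 5 Apob probes agreed in sign in both comparisons but not in size. In the order of the gene, the log2 ratios of Atg7 cKO over wild type were -0.77, -0.62, -0.70, -1.15 and -1.07. The abutting pair at the end of the gene, printed above, had the largest ratios of the 5. That pair was also the brightest, with mean log2 signals in the same order of 8.58, 10.78, 8.47, 12.35 and 12.61. On the array of experiment 2 with Atg7 cKO in Cy5, the ratios here were -1.04, -1.06, -0.87, -1.48 and -1.36. The deposited value table gave -1.31, -1.07, -1.18, -1.465 and -1.34 for that array. Whether brightness bears on the sizes was not tested. In a limma fit over all kept probes 4 of the 5 passed, and the second, at chr12:8014710-8014769, had an adjusted p of 0.0948. The double KO ratios were -0.58, -0.49, -0.32, -0.50 and -0.50, and again the second alone missed the threshold (adjusted p = 0.174).

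Among the C apolipoproteins, Apoc4 was the most clearly lower. Its signal was 4108 and 3092 in Atg7 cKO livers, against 7183 and 7146 in wild-type livers (log2 ratio -1.01 ± 0.15 SE, limma adjusted p = 0.00616). In double KO livers it was 4005 and 4476, against 8173 and 6598 in wild type (log2 ratio -0.79 ± 0.15 SE, limma adjusted p = 0.0130). In each experiment of both comparisons the knockout was below its paired wild type. Leaving out experiment 5 took the adjusted p to 0.0539 in Atg7 cKO, and leaving out experiment 3 took it to 0.0992 in the double KO.

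Apoc3, measured by the overlapping probes, was lower in the double KO, at 5368 and 7222 against 9781 and 10450 in wild type (log2 ratio -0.70 ± 0.18 SE, limma adjusted p = 0.0331). In Atg7 cKO livers it was at 8059 and 6357, against 9425 and 11340, and did not pass (log2 ratio -0.53, limma adjusted p = 0.0688). The 2 experiments of Atg7 cKO differed, at -0.23 and -0.83, and without experiment 2 the adjusted p was 0.0376. In the double KO the adjusted p was 0.0534 without experiment 1 or 4, 0.227 without 3 and 0.0892 without 6, and it was 0.0537 with no filter on dim probes and 0.0710 with Agilent's processed signals. In Atg7 cKO Apoc3 passed with slide as a block (adjusted p = 0.0207) and with single arrays and a dye effect (0.0219). These values are of Apoc3 probe 2, and the overlapping Apoc3 probe 1 gave a log2 ratio of -0.55 in Atg7 cKO (limma adjusted p = 0.0459 over probes) and -0.67 in the double KO.

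Apom, the sphingosine-1-phosphate carrier of HDL, was at 3550 and 4473 in Atg7 cKO livers, against 6738 and 6080 in wild-type livers (log2 ratio -0.68 ± 0.15 SE, limma adjusted p = 0.0201). The double KO livers had 4049 and 4294, against 7295 and 5728 (log2 ratio -0.63 ± 0.15 SE, limma adjusted p = 0.0261). Apom was below its paired wild type in each of these experiments. Without experiment 2 the adjusted p in Atg7 cKO was 0.121, and in the double KO it was 0.0580 without experiment 1 or 4 and 0.194 without experiment 3.

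In double KO livers 6 of 10 members were lower, Apoa2, Apob, Apoc3, Apoc4, Apoe and Apom, and none was higher, against 16% of all genes called lower and 21.4% called higher. The median log2 ratio of the 10 was -0.62, against 0.01 for all genes. Under median centring 2 members were called, Apoa2 lower and Apoa4 higher, and with Agilent's processed signals 3. Over all genes median centring called 864 lower and 5179 higher, against 2616 and 3506 with loess. Agilent's processed signals called 3745 lower and 3282 higher. The count depended on single experiments: without experiment 3 it was 1 lower and 1 higher (Apoa2 and Apoa4), without experiment 1 or 4 it was 2 (Apoa2 and Apoc4), without 6 it was 5, and without 2 or 5 it was 7. In Atg7 cKO the count lower was 4 without experiment 1, 5 without experiment 2, 6 without experiment 3 or 6, 5 without experiment 4 and 3 without experiment 5. Apoa4 was the seventh call, and higher, without experiment 3 or 6.

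**Figure D1:**
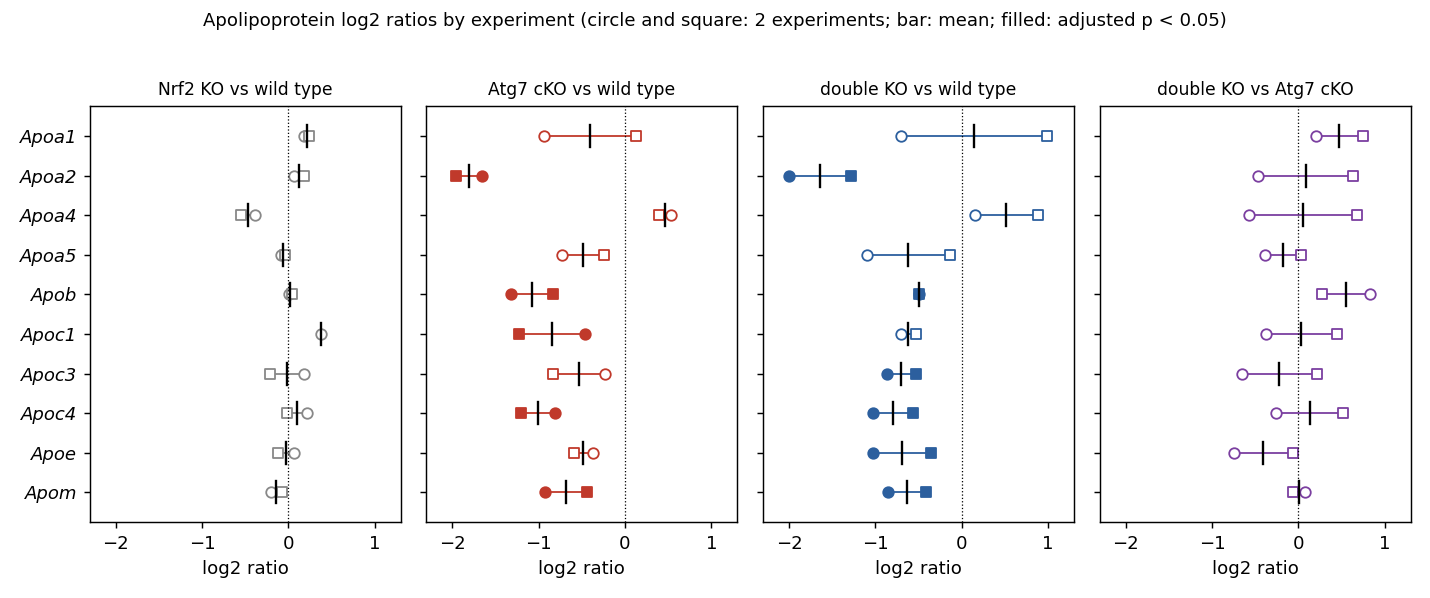
Log2 ratio (horizontal axis) of each apolipoprotein gene in each of the 4 comparisons, with a symbol for each of the 2 experiments (circle, the lower-numbered), a bar at their mean and filled symbols where the limma adjusted p was under 0.05. Apoa2 sits at -1.80 in Atg7 cKO and -1.64 in the double KO, and the Nrf2 KO panel has no filled symbol and 1 symbol for Apoc1.

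Apoe and Apoc1 differed from the others in how strongly their ratio depended on the dye. With the knockout RNA in Cy5, their log2 ratio was higher than with it in Cy3 by 1.66 on average for Apoe and by 1.89 for Apoc1, and for Apoa2 by 0.80, against a median absolute gap of 0.07 over all kept probes. The mean gap had the other sign for Apoa4 (-0.51), Apoa1 (-0.46) and the second Apoa5 probe (-0.45). In experiment 5 the Apoe ratio of Atg7 cKO over wild type was 0.46 with Atg7 cKO in Cy5 and -1.63 with it in Cy3. The sign of the Apoe ratio went with the dye on most arrays, while each Apoa2 array of Atg7 cKO and of the double KO was below 0. The 10 spots of the Apoe probe on an array had a median SD of 0.05 on the log2 scale, far below the dye gap.

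Averaged over the dyes, Apoe was at 21270 and 20220 in Atg7 cKO livers, against 27590 and 30410 in wild-type livers, and did not pass (log2 ratio -0.48 ± 0.16 SE, limma adjusted p = 0.0683). The Apoe signal was 16680 and 22340 in double KO livers, against 33840 and 28620 in wild type (log2 ratio -0.69 ± 0.16 SE, limma adjusted p = 0.0259). Leaving out experiment 3 or 6 took the adjusted p in Atg7 cKO to 0.0169, and in the double KO it was 0.0557 without experiment 1, 0.0558 without 4 and 0.115 without 3. Apoc1 was at 21400 and 17770 in Atg7 cKO livers, against 29590 and 41480 in wild-type livers (log2 ratio -0.85 ± 0.19 SE, limma adjusted p = 0.0324). Its experiments differed widely, at -0.47 and -1.22, and the adjusted p was 0.0621 without experiment 3 or 6 and 0.0613 without experiment 5. The Apoc1 call was also lost with Agilent's processed signals (log2 ratio -0.65, adjusted p = 0.107), with median centring (0.127) and with no filter on dim probes (0.0536), and held in 8 of 14 other settings. For Apoc1 in the double KO the log2 ratio was -0.62 (limma adjusted p = 0.0741), and without experiment 2 or 5 the adjusted p was 0.0107.

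**Figure D2:**
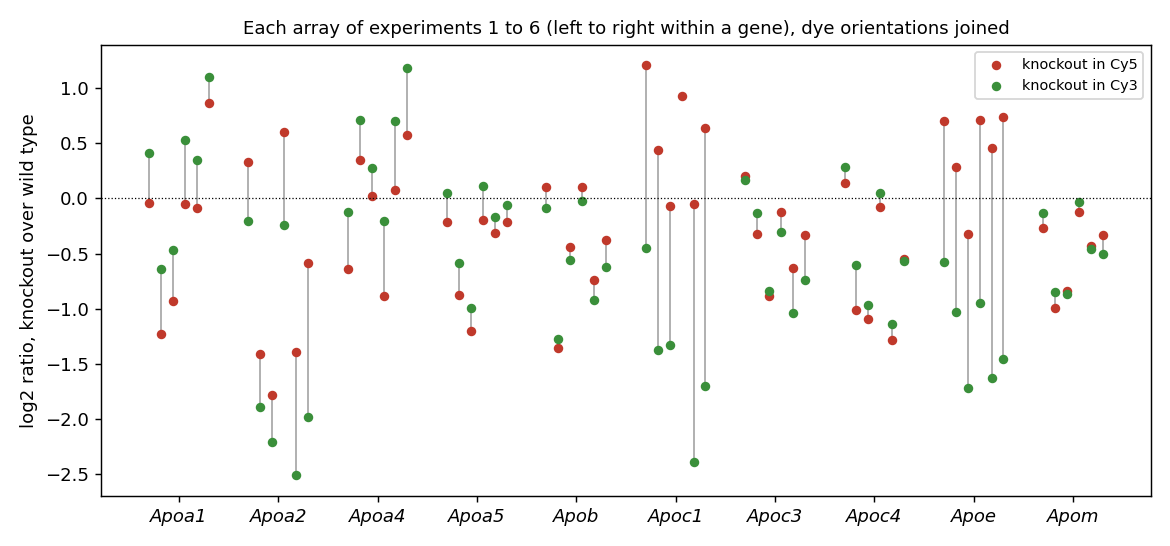
Log2 ratio of knockout over wild type (vertical axis) on every array of experiments 1 to 6 for the probe of each gene, red with the knockout in Cy5 and green with it in Cy3, joined within an experiment. The lines of Apoc1 and Apoe are the longest, with mean gaps of 1.89 and 1.66, and the pair of Apob points lies close together.

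Apoa1, Apoa4 and Apoa5 did not pass in any of the 4 comparisons in the fit of group means, though each passed in at least 1 comparison under another setting. Apoa1, the main HDL protein, had its 2 double KO experiments on opposite sides of 1. Its signal was 5846 in the double KO against 9500 in wild type in experiment 3, and 10060 against 5085 in experiment 6. The log2 ratios were -0.70 and 0.98 (limma adjusted p = 0.826), and in Atg7 cKO they were -0.93 and 0.13 (adjusted p = 0.503). With slide as a block, a fit with few residual degrees of freedom, the Apoa1 log2 ratio in Atg7 cKO was -0.67 (limma adjusted p = 0.0275).

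Apoa5, the activator of triglyceride clearance, was at 6145 and 5414 in Atg7 cKO livers, against 10170 and 6389 in wild-type livers (log2 ratio -0.48, limma adjusted p = 0.168). It was at 5039 and 5513 in double KO livers, against 10780 and 6052 (log2 ratio -0.62, limma adjusted p = 0.102). All 4 ratios were below 0, and those of experiments 2 and 3 were larger than those of 5 and 6. Leaving out experiment 3 or 6 took the adjusted p in Atg7 cKO to 0.0479, and leaving out experiment 6 took that of the double KO to 0.0228. Apoa5 in the double KO also passed with the set of experiments as a block, at the same ratio (adjusted p = 0.0321), with slide as a block (0.0187) and with single arrays and a dye effect (0.00670). In Atg7 cKO it passed with slide as a block (0.0204) and with single arrays (0.0251). The second Apoa5 probe gave -0.26 and -0.38, with the same sign as the first.

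Apoa4 was the one member with a mean above 0 in both Atg7 cKO and the double KO, and Apoa1 had one in the double KO. The Apoa4 signal was 281.5 and 334.9 in Atg7 cKO livers, against 194.6 and 254.9 in wild-type livers (log2 ratio 0.46, limma adjusted p = 0.0867). It was 179.5 and 482.2 in double KO livers, against 161.6 and 261.7 (log2 ratio 0.52, limma adjusted p = 0.0684). Averaged over the dyes, all 4 experiments lay above 0. With the knockout in Cy5 alone the Apoa4 ratio was 0.02 in experiment 3 and 0.08 in experiment 5, and its mean dye gap was -0.51. Without experiment 3 or 6 the adjusted p in Atg7 cKO was 0.0124, and without experiment 3 that of the double KO was 0.0152. Apoa4 was also called higher in both with median centring and with single arrays and a dye effect, and in the double KO with slide as a block (adjusted p = 0.0472).

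**Figure D3:**
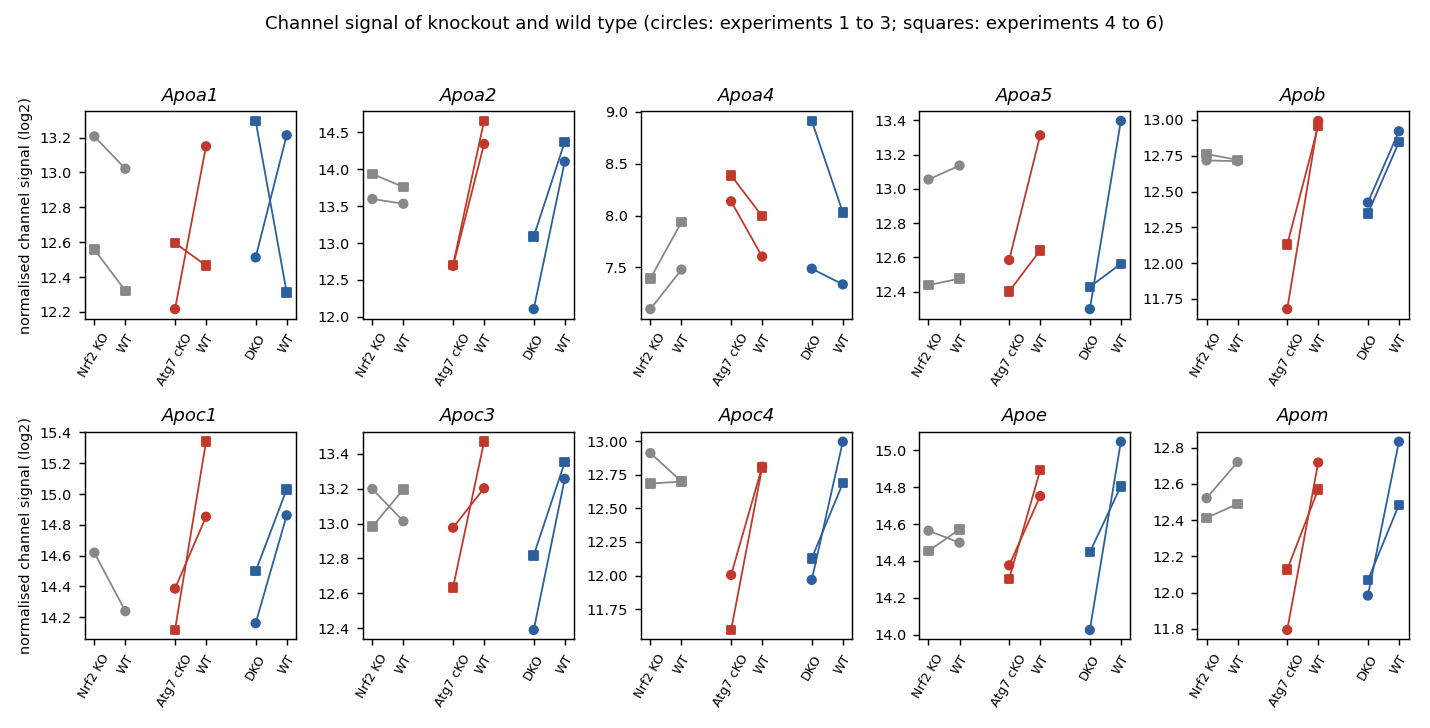
Normalised channel signal (vertical axis, log2) of knockout, left, and wild type, right, for each gene in experiments 1 to 6, with circles for experiments 1 to 3 and squares for 4 to 6 and a line joining an experiment's pair (Apoc1 of experiment 4 is not drawn). All genes but Apoa1 and Apoa4 slope upward from Atg7 cKO and double KO to wild type in all 4 experiments. The Apoa4 lines slope downward there, and the Apoa1 lines cross.

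The wild-type channels differed between the sets of experiments as well. The wild-type signal did not overlap between experiments 4 to 6 and experiments 1 to 3 for 5 of the 10 members. That is near the share over all 16361 genes compared, 40.9%, so the count is not particular to the members. Apoa1 averaged 12.37 ± 0.09 (log2 signal, SD, n = 3) in experiments 4 to 6 and 13.13 ± 0.10 in experiments 1 to 3. Apoa5 averaged 12.56 ± 0.08 against 13.28 ± 0.13, and Apom 12.51 ± 0.05 against 12.76 ± 0.07. Apoa4 was the other way, at 7.99 ± 0.05 against 7.47 ± 0.13, as was Apoc1, at 15.19 ± 0.22 (n = 2) against 14.65 ± 0.36 (n = 3). The wild-type signal of Apob differed by -0.03 and that of Apoe by -0.01, both within their spread.

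Whether the effect of Atg7 loss differed from that of Nrf2 loss was tested as the difference of their ratios in the same fit. It passed for Apoa2 (-1.92, limma adjusted p = 0.00940), Apob (-1.10, adjusted p = 0.0125) and Apoc4 (-1.11, adjusted p = 0.0231), 3 of 10 lower against 8.06% of all genes. Without experiment 1 or 4 the count was 0, with adjusted p of 0.0663 and 0.0711 for Apoa2, 0.0820 and 0.0837 for Apob, and 0.129 and 0.0938 for Apoc4. Without experiment 5 the adjusted p of Apoc4 was 0.0864, and with median centring it was 0.105. The interaction, which asks whether the double KO departed from the sum of both single effects on the log2 scale, passed for 0 of 10 members against 0.72% of all genes, with 1 member, Apob, at an unadjusted p under 0.05. Its interaction was 0.55 ± 0.20 SE (limma adjusted p = 0.309).

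In the direct comparison of the double KO with Atg7 cKO, fitted on the deposited value table, 0 of 10 members passed, against 14.8% of all genes, and 1 (Apob) had an unadjusted p under 0.05. Through wild type, in experiments 1 to 6, 0 of 10 passed, against 4.96%. The median log2 ratio of the 10 was 0.04 in the direct comparison, against 0.01 for all genes, and 0.11 through wild type. The 2 direct experiments often had opposite signs: Apoa2 was at -0.47 in experiment 7 and 0.63 in experiment 8, Apoa4 at -0.57 and 0.68, Apoc1 at -0.38 and 0.44, Apoc3 at -0.66 and 0.22, and Apoc4 at -0.26 and 0.52. Apoa1 was higher in the double KO in both, at 0.20 and 0.75, and Apoe lower in both, at -0.75 and -0.06 (limma adjusted p = 0.451 and 0.238).

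These opposite values were found again in other arrays of the series. On the value table, experiment 7 differed from experiment 3 minus experiment 2 by a median of 0.10 over the 10 members and by 0.19 at most, and experiment 8 differed from experiment 6 minus experiment 5 by a median of 0.10 and by 0.29 at most. Crossed, experiment 7 differed from experiment 6 minus 5 by a median of 0.96, and experiment 8 from experiment 3 minus 2 by 0.63. Over all 16382 genes the matched medians were 0.10 and 0.08 and the crossed ones 0.29 and 0.30. The labels do not say whether the same RNA was used, so the direct comparison and that through wild type may not be independent. This setting of experiments side by side was chosen after seeing the data.

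**Figure D4:**
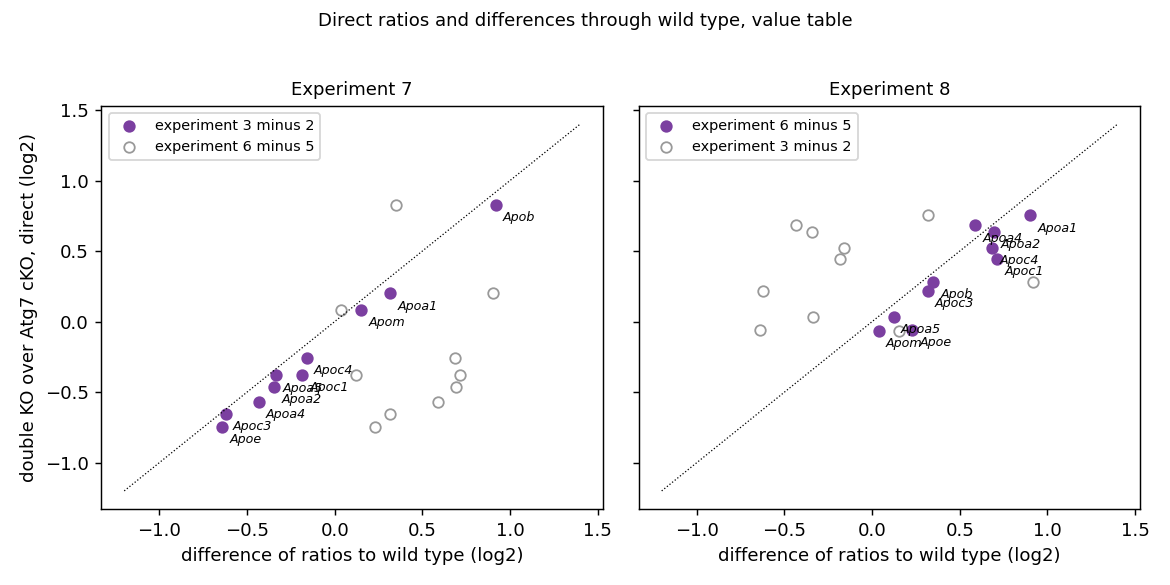
Direct log2 ratio of double KO over Atg7 cKO (vertical axis) for each gene against the difference of the ratios to wild type (horizontal axis), in experiment 7 (left) and experiment 8 (right), with filled points for experiment 3 minus 2 (left) or 6 minus 5 (right), open points for the other difference and a dotted line of equality. Filled points lie within 0.19 (left) and 0.29 (right) of the line, and open points scatter away from it.

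The genes around lipoprotein handling were read from lists of 71 genes, of which 64 were measured. In Nrf2 KO livers 0 of the 64 passed, with 2 at an unadjusted p under 0.05. In Atg7 cKO livers 8 were higher and 26 lower, with a median log2 ratio of -0.33, against 23.4% of all genes higher and 16.3% lower. In double KO livers 9 were higher and 22 lower, with a median of -0.20, against 21.4% and 16% of all genes. The counts by list that follow are to be set against the same shares. The largest changes in Atg7 cKO were in lipoprotein lipase, Lpl, which hydrolyses the triglyceride of particles (log2 ratio 2.90, limma adjusted p = 0.00496), and in Pon1, an HDL-bound esterase (-2.73, adjusted p = 0.00172). Abcg1, a cholesterol exporter, was higher (1.49). In the double KO the log2 ratio of Lpl was 1.91, of Pon1 -1.61 and of Abcg1 1.55, each past the test.

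Of 12 other apolipoprotein genes measured, 4 were higher and 4 lower in Atg7 cKO and also 4 and 4 in the double KO, with medians of 0.11 and -0.03. Clu, or apolipoprotein J, was higher in both (1.24 in Atg7 cKO and 1.96 in the double KO), while Apoh, which binds phospholipids, was lower in Atg7 cKO (-1.21). Of 10 genes of particle assembly, secretion and editing, 1 was higher and 3 lower in Atg7 cKO, and 1 was higher and 5 lower in the double KO. The one higher in the double KO was Apobec1, the cytidine deaminase that edits Apob mRNA (1.20, limma adjusted p = 0.00465). Of 14 lipases, transfer proteins and HDL remodelling genes, 3 were higher and 6 lower in Atg7 cKO, and 4 were higher and 5 lower in the double KO. Of 9 receptors 0 were higher and 1 was lower in Atg7 cKO, and 0 passed in the double KO, with 2 at an unadjusted p under 0.05.

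The list of transcription factors known to act on apolipoprotein genes had 19 measured members, of which 12 were lower and 0 higher in Atg7 cKO (median log2 ratio -0.55), and 8 were lower and 0 higher in the double KO (median -0.33). Cebpa, a factor of hepatocyte differentiation, was lower in the double KO (-1.21, limma adjusted p = 0.00182). Directly against Atg7 cKO, 4 of the 64 genes were higher and 5 lower in the double KO, against 6.73% and 8.09% of all genes. Saa4, a serum amyloid A of HDL, was highest (2.36, adjusted p = 0.0138), Apon and Apol7a were each higher by 0.99 and Apof by 0.82. Mttp, which loads lipid onto Apob, was lower by a log2 ratio of -0.60 (adjusted p = 0.0174) and A1cf, the partner of Apobec1, by -0.81. With experiments 7 and 8 fitted alone, 0 of the 64 passed.

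Markers of cell types moved with these genes. The summed signal of 6 measured hepatocyte markers was 24990 and 25190 in Atg7 cKO livers, against 75720 and 87010 in wild-type livers, and 25260 and 41730 in double KO livers, against 72790 and 72210. All 6 were lower in Atg7 cKO and 5 in the double KO, with the albumin gene Alb at a log2 ratio of -1.41 and -1.40. In Nrf2 KO livers the sum was 57630 and 58260, against 48340 and 51820, and 0 of 6 passed. Wild-type sums also varied with the partner on the array. In bulk liver RNA fewer hepatocytes and less of an RNA per hepatocyte cannot be told apart. The summed signal of 13 macrophage and Kupffer cell markers was 28760 and 46640 in Atg7 cKO livers, against 8314 and 9509, and 57100 and 54970 in double KO livers, against 7255 and 9341. Of these 13, 10 were higher and 1 lower in Atg7 cKO, and 12 were higher and 1 lower in the double KO. Of 8 stellate cell markers 5 were higher in Atg7 cKO and 5 in the double KO, with the collagen gene Col1a1 at log2 ratios of 2.21 and 1.96, and none was lower. Of 3 neutrophil markers measured 2 were higher in each, with S100a9 at 1.33 and 3.27. Of 5 cholangiocyte markers 2 were higher in each, and of 5 lymphocyte markers 2 were higher in Atg7 cKO and 3 in the double KO. Of 6 endothelial markers 2 were higher in Atg7 cKO, and 1 was higher and 3 lower in the double KO. Directly against Atg7 cKO, 3 of the 5 lymphocyte markers and 1 of the 3 neutrophil markers, S100a9, were higher in the double KO. Through wild type 0 of the 5 and 0 of the 3 passed. In the direct comparison 2 of the 13 macrophage markers were higher and 1 lower, and 1 of the 6 hepatocyte markers was higher. Of the 6 endothelial markers 1 was lower, as was 1 of the 5 cholangiocyte markers, and 0 of the 8 stellate cell markers passed. Over all genes 6.73% were higher and 8.09% lower there. Macrophages make Apoe, Apoc1 and Lpl too, and the part of these cells in the ratios was not tested.

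By a rule of smallest root mean square difference of log2 ratios over the 8 experiments, among 16352 genes, the genes most like Apoa2 were Cxcl12 (0.10), Gls2 (0.11) and 1110020A21Rik (0.11). Those most like Apob were H1f0 (0.14) and Lpp (0.16), followed by a cDNA with no gene symbol. The Apob ratio was further below 0 in Atg7 cKO than in the double KO, a difference that missed the threshold. In H1f0 the value-table log2 ratios were -1.11 and -0.76 in Atg7 cKO and -0.37 and -0.31 in the double KO. H1f0 was picked for its likeness to Apob over these same experiments, so its values are no support for that difference.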

How the data were processed

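Per the file headers, each scanner file gave the mean signal and background intensity of every spot and came from version 9.5.1.1 of Feature Extraction; the submitters' processing notes name version 9.5.1. The deposited value table held log10 ratios of Cy5 over Cy3, in 16 columns with a median of 0, and was turned to log2. For 12 arrays the table could be set against the scanner's log10 ratio and matched it within 0.005. The direct comparison used this table.

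Signals were corrected with normexp (offset 50) and normalised by loess within arrays (R 4.3.3, limma 3.58.1). The knockout was put on top of each ratio, and both orientations of a dye swap were averaged. An experiment with 1 orientation lost at a probe was left out there. Probes well above background in at least 4 of 24 channels were kept, the brightest standing for its gene. Channel signals were rebuilt from a spot's average intensity, scaled between arrays by Aquantile, and its ratio. Wild-type signals obtained in this way varied with the partner on the array, so signals are to be compared within an experiment. limma was fitted over 16380 genes with 3 group means over experiments 1 to 6, or 4 group means over all 8 for the direct comparison, at an adjusted p under 0.05 (Benjamini-Hochberg). Slide barcodes in the headers put experiments 1 and 2 together, 3 with 4, and 5 with 6. The number of arrays limits the precision.

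All 10 genes are named by rule; of the pathway lists, up to 8 called genes per comparison with the largest ratios may be named. The members and lists were chosen with earlier results of these data known.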

Additional observations from a re-analysis of the deposited data

Results flagged for a closer look

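For 3 of the 10 apolipoproteins the effect of Atg7 loss differed from the effect of Nrf2 loss by a test of the difference itself in limma. All 3 differences were below 0, against 8.06% of all genes called in that direction. The difference of log2 ratios, Atg7 cKO minus Nrf2 KO, was -1.92 for Apoa2 (adjusted p = 0.00940), -1.10 for Apob (adjusted p = 0.0125) and -1.11 for Apoc4 (adjusted p = 0.0231). In each, both Atg7 cKO experiments lay below both Nrf2 KO experiments. The genes were picked by this contrast on the same values, so that adds no support. Without experiment 1 or 4, which leaves 1 Nrf2 KO experiment, none of the 3 passed. The Apoc4 difference also missed the threshold with median centring in place of loess (adjusted p = 0.105) and without experiment 5 (0.0864).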

How the results depend on the processing

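Calls rested on 2 experiments a comparison, and the number of arrays limits the precision. With median centring in place of loess the median of all genes shifted to 0.21 in Atg7 cKO and 0.14 in the double KO, the member medians were 0.14 (Nrf2 KO), -0.22 (Atg7 cKO) and -0.56 (double KO), and 3 members were called in Atg7 cKO (Apoa2, Apob and, higher, Apoa4), 2 in the double KO and 19 of the 64 pathway genes in the double KO. With Agilent's processed signals 3 members were called in the double KO, and the Atg7 cKO median was -0.55. With slide as a block the medians were 0.10 (Nrf2 KO) and -0.67 (Atg7 cKO), with 8 members called in Atg7 cKO and 6 in the difference between Atg7 cKO and Nrf2 KO, against 5 with set as a block. Single arrays with a dye effect and random experiment called 8 in Atg7 cKO, 6 in that difference, 1 (Apob) in the direct comparison and 30 pathway genes there, against 0 with experiments 7 and 8 alone and 3 through wild type. The slide block leaves few residual degrees of freedom, and the single-array fit takes the arrays of a dye swap as separate rows. The number of all genes called also changed with the setting, as given above for median centring and Agilent's processed signals. For the block and single-array fits, and with an experiment left out, it is not given here. A change in a member count therefore cannot be told apart from a change in the rate over all genes. The causes were not tested.

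Uncalled ratios near 0 changed sign: in Nrf2 KO, under median centring, Apoa5 0.0827, Apoc3 0.1225, Apoe 0.1107 and Apom 8e-04, and under the slide block Apoa5 0.1824, Apoe 0.0489 and Apom 0.0144; in the double KO, Apoa1 -0.044 under the slide block. Leaving out 1 experiment at a time, member counts ranged from 3 to 7 (Atg7 cKO), 2 to 7 (double KO) and 0 to 4 (the difference), and pathway counts from 20 to 31 (Atg7 cKO), 15 to 31 (double KO) and 1 to 4 (direct). Member medians ranged from -0.04 to 0.06 (Nrf2 KO), -0.77 to -0.53 (Atg7 cKO), -0.86 to -0.46 (double KO) and -0.38 to 0.36 (direct). Signs changed in Nrf2 KO for Apoc3 (-0.21 to 0.18), Apoc4 (-0.0147 to 0.2114) and Apoe (-0.1167 to 0.0649), for Apoa1 in Atg7 cKO (-0.93 to 0.13) and the double KO (-0.70 to 0.98), and in the direct comparison for Apoa2 (-0.47 to 0.63), Apoa4 (-0.57 to 0.68), Apoa5 (-0.3814 to 0.0311), Apoc1 (-0.38 to 0.44), Apoc3 (-0.66 to 0.22), Apoc4 (-0.26 to 0.52) and Apom (-0.0632 to 0.0816). Set and slide were fitted as blocks, as given above. Each ratio pairs a knockout with the wild type on the same arrays. The labels give no experiment number shared between comparisons, so beyond these blocks no pairing between comparisons was fitted.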
